A study of Danio rerio with 7 samples.

Results

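The genes described here encode the pyruvate dehydrogenase complex of the zebrafish and its switches: the subunits pdha1a, pdhb, dlat and pdhx, the kinase pdk4 and the phosphatase pdp2. They were chosen by symbol, ignoring case, and all 6 were found among the 4449 genes that the study sorted into 8 modules. The cells came from adult hearts of fish with the nppa:mCitrine reporter, whose nppa gene is switched on in heart muscle bordering an injury, taken 7 days after cryoinjury. Dissociated ventricle cells were sorted on mCitrine, 1 cell to a well of 384-well plates, from fish labelled hmga1a mutant (4 plates) and fish labelled wildtype (3 plates). Both groups carry the reporter and both were injured; the hmga1a allele, the number of fish behind a plate and their ages were not given in the sources used here. hmga1a encodes a DNA-binding chromatin protein of the high mobility group.

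Pyruvate dehydrogenase stands where glycolysis meets the mitochondrion. It turns pyruvate into acetyl-CoA, which feeds the citric acid cycle, and its first enzyme is shut off by phosphorylation and turned on again by dephosphorylation. In heart muscle this switch sets how far carbohydrate or fatty acid is burned, and pdk4 is known in mammals as the kinase induced by fasting and fatty acids.

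The deposited module lists give gene identifiers and no expression values, so no level, depth or error per plate is known for any of the 6 genes, and hmga1a mutant and wildtype plates could not be compared. For the same reason the label of border zone cardiomyocytes could not be checked against expression. The 9 cardiomyocyte marker symbols gave 7 identifiers, with the name TTN repeated and some symbols, such as tnnt2a and ryr2a, not found. All 7 lay in a module, beside 12.5% of all named genes. Of them 4 lay in module 7, 2 in module 4, 1 in module 5 and 0 in module 6. The marker lists of other cells were also met: 4 of 4 leukocyte identifiers, 2 of 3 endothelial, 1 of 4 fibroblast and epicardial and 1 of 2 erythrocyte ones lay in modules. Of these 8, 4 lay in module 3, 4 in module 1 and none in modules 6 or 7. Module 1 holds 34.7% of all module genes, module 2 13.5%, module 3 8.02%, module 4 10.7%, module 6 9.84% and module 7 8.52%. hmga1a itself and nppa lay in module 5, hmga1b in module 4 and nppb in module 2. Module 5 holds 11.1% of all module genes and held none of the pyruvate dehydrogenase genes. With so few genes and that share, the absence is not read as a separation.

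The subunits lay in the same module. All 4 subunits were in module 7, which holds 379 genes or 8.52% of all module genes. pdk4 was in module 6, with 438 genes or 9.84%, and pdp2 in module 1, with 1543 genes or 34.7%. No test goes with these places, because the genes were picked with the modules known. At a share of 8.52% for module 7, the absence of both regulators from it is not read as a result.

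pdha1a (ENSDARG00000012387) encodes the alpha subunit of the decarboxylase, the subunit that the kinases phosphorylate. pdhb (PDHB in the name table, ENSDARG00000021346) encodes its beta subunit. dlat (DLAT, ENSDARG00000015918) encodes the acetyltransferase core, which passes the acetyl group to coenzyme A on a lipoyl arm. pdhx (PDHX, ENSDARG00000051756) encodes the protein that tethers the dihydrolipoamide dehydrogenase to that core. pdk4 (PDK4, ENSDARG00000054848) encodes a kinase of the alpha subunit, and pdp2 (PDP2, ENSDARG00000058571) the catalytic subunit of a phosphatase that reverses it.

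Other genes of the complex were looked up by the same route. Of 15 identifiers that carry the name of a subunit, a pyruvate dehydrogenase kinase, a phosphatase or the phosphatase regulator, 8 lay in a module, 6 of them the genes chosen with the modules known. Of the other 9, 2 lay in a module; over all 29201 named genes the share is 12.5%. The 2 were identifiers with the symbol PDK2, the widely expressed kinase of the family in mammals. One of them (ENSDARG00000020876) lay in module 6 with pdk4, and the other (ENSDARG00000059054) lay in module 1 with pdp2. Which of them is pdk2a and which is pdk2b is not given by the name table. The remaining 7 lay in no module: pdha1b, the other alpha subunit gene, PDK1, both identifiers named PDK3, PDP1, PDPR and DLD. The symbol DLD is ambiguous, since RefSeq lists dld both as a synonym of the dihydrolipoamide dehydrogenase gene dldh and as the symbol of another gene. Taken by role, 4 of 4 subunit genes in modules were in module 7, which holds 8.52% of all module genes. Of 4 kinase and phosphatase genes, 0 were there, which is not read as a result at that share. Module 6, with 9.84% of all module genes, held 2 of these 4 and module 1, with 34.7%, the other 2. Only the 2 PDK2 identifiers are new to this count, as the other 6 are the genes chosen.

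**Figure D1:**
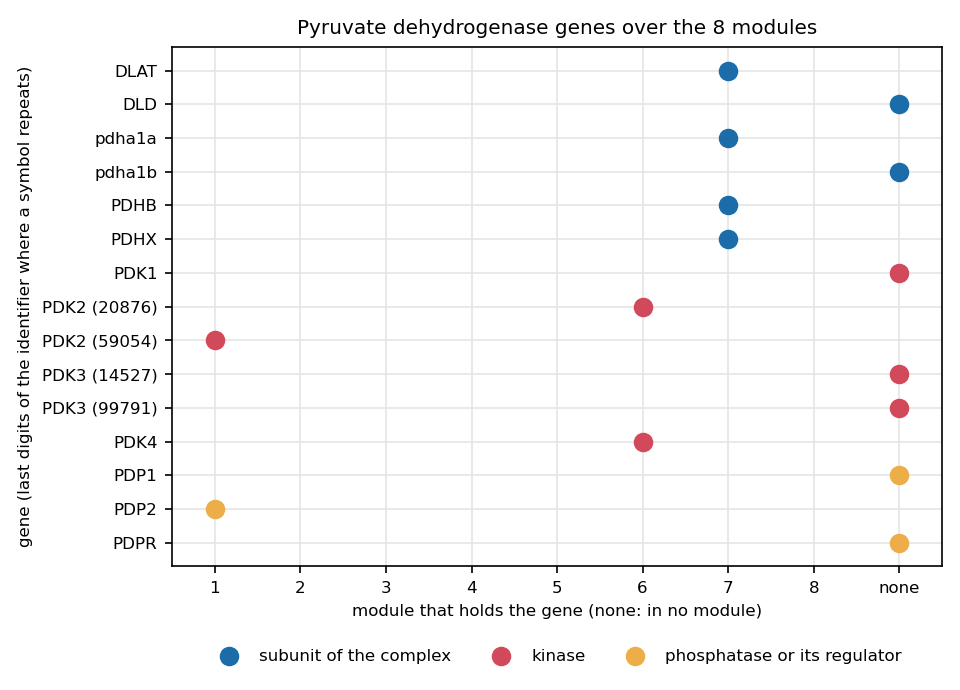
Each row is a gene of the pyruvate dehydrogenase complex, a kinase or a phosphatase, and each column is a module; a dot marks the module that holds the gene. The 4 blue dots of subunits in modules stand in module 7, the kinases stand in modules 6 and 1, the phosphatase PDP2 stands in module 1, and 7 genes stand in the column for no module.

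The authors also deposited an annotation chart for each module, which lists biological terms with the number of module genes in each, a fold over an annotation background, a p-value and a Benjamini-adjusted p. The fold is the share of annotated module genes in a term over the share of background genes in it. A term is called below where the authors' adjusted p is under 0.05. These statistics concern gene lists and carry no spread between plates. The 6 genes stood in 28 rows of these charts: 15 for the subunits in the chart of module 7, 9 for pdk4 in that of module 6 and 4 for pdp2 in that of module 1.

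Of the 15 rows with a subunit, 8 were called, where 53.5% of all 155 terms in the module 7 chart were. Of the 9 rows with pdk4, 4 were called, where 7.83% of the 115 terms in the module 6 chart were, and of the 4 rows with pdp2, 0 were, where 4.46% of the 202 terms in the module 1 chart were. At an unadjusted p under 0.05, the authors' deposited table has 2 of the rows with pdp2. Of all 202 terms in the module 1 chart, 115 had such a p. The share called among the rows of the subunits was thus close to that of their whole chart. The called rows with pdk4 are overlapping terms on kinases and nucleotide binding and are not separate results.

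The term that names the reaction held every subunit in the modules. Acetyl-CoA biosynthetic process from pyruvate listed pdha1a, pdhb, dlat and pdhx and no other gene, 4 of the 5 background genes with that annotation (57.0-fold, adjusted p = 7.19e-04 in the authors' deposited table). Mitochondrial pyruvate dehydrogenase complex listed pdha1a, pdhb and dlat, 3 of 4 background genes (50.3-fold, adjusted p = 0.00763 in the authors' deposited table). Both rows list only genes chosen with the modules known, so they are no separate support for the shared module. Each of the other rows that name the enzyme held 2 genes and was not called. Pyruvate dehydrogenase complex listed dlat and pdhx, 2 of 2 background genes (67.0-fold, adjusted p = 0.119 in the authors' deposited table). Pyruvate dehydrogenase activity listed pdhb and dlat, 2 of 2 background genes (72.5-fold, adjusted p = 0.279 in the authors' deposited table). Pyruvate dehydrogenase (acetyl-transferring) activity listed pdha1a and pdhb, 2 of 3 background genes (48.3-fold, adjusted p = 0.369 in the authors' deposited table). The highest folds of the 15 rows, 72.5 and 67.0, thus came from terms of 2 genes whose adjusted p did not pass the threshold.

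The pathway rows set the subunits beside their neighbours in metabolism. In the KEGG citrate cycle, pdha1a, pdhb and dlat stood with MDH2, MDH1, IDH2, DLST, SDHC and FH, 9 of 35 background genes (8.57-fold, adjusted p = 1.25e-04 in the authors' deposited table). These other genes encode malate dehydrogenases, isocitrate dehydrogenase, the succinyltransferase of the oxoglutarate dehydrogenase complex, a succinate dehydrogenase subunit and fumarase. The tricarboxylic acid cycle of the gene ontology listed those same 6 without any subunit of pyruvate dehydrogenase, 6 of 33 background genes (13-fold, adjusted p = 0.00226 in the authors' deposited table). Both records of the cycle were therefore called, and the subunits account for 3 of the 9 genes in the KEGG one.

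The same trio stood in the other KEGG rows on carbon. Carbon metabolism held 16 genes (3.98-fold, adjusted p = 1.48e-04 in the authors' deposited table), among them the glycolytic genes GAPDH, TPI1, PGAM2 and ENO3 and 2 identifiers named ALDOA. Glycolysis and gluconeogenesis held 10 genes, the 3 subunits with LDHB and the same glycolytic genes (4.11-fold, adjusted p = 0.00827 in the authors' deposited table). Pyruvate metabolism held 7 genes, the 3 subunits with MDH2, MDH1, LDHB and FH (4.24-fold), and its adjusted p of 0.0545 in the authors' deposited table lay just past the threshold. Metabolic pathways, a broad row of 76 genes, held all 4 subunits (1.37-fold, adjusted p = 0.0142 in the authors' deposited table).

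pdhx was annotated apart from its partners. It stood in 5 rows, against 9 for pdha1a, 12 for pdhb and 9 for dlat, and in none of the citrate cycle, carbon metabolism, glycolysis and pyruvate metabolism rows. It alone of the 4 stood in mitochondrion, the row of 79 genes (5.74-fold, adjusted p = 9.52e-36 in the authors' deposited table), and in mitochondrial matrix, with lyrm7, SOD2, DLST and ISCU (4.04-fold, adjusted p = 0.139 in the authors' deposited table). pdha1a shared 9 rows with pdhb, 7 with dlat and 2 with pdhx. The difference lies in which annotation each gene carries and says nothing of its expression. The median over the 272 genes of module 7 that stand in any row was 5 rows, which is the number for pdhx, and 2 of the 272 stood in more rows than pdhb.

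**Figure D2:**
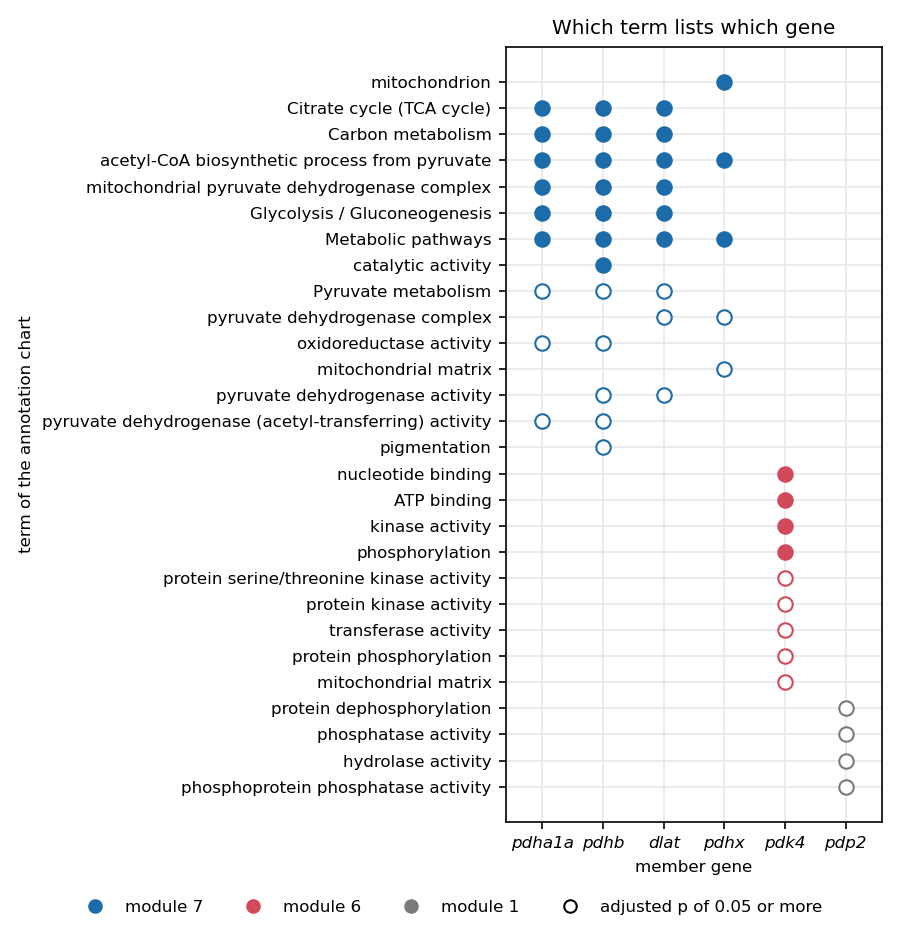
Columns are the 6 genes and rows the 28 chart rows that list any of them; a filled dot is a term with an adjusted p under 0.05 and an open dot one above it, coloured by module. pdha1a shares 9 rows with pdhb and 7 with dlat, and pdhx shares 2 with pdha1a. Each row belongs to the chart of a single module, so genes of different modules cannot share a row.

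pdk4 was listed mostly by what a kinase does. Pyruvate metabolism was in the chart of module 7 alone, so pdk4 could not be listed under it. In the chart of module 6, nucleotide binding held 61 genes (2.32-fold, adjusted p = 3.13e-07 in the authors' deposited table). Kinase activity held 28 (2.52-fold, adjusted p = 0.00345 in the authors' deposited table) and ATP binding 53 (1.81-fold, adjusted p = 0.00345 in the authors' deposited table). Phosphorylation held 28 (2.39-fold, adjusted p = 0.0397 in the authors' deposited table). The narrower kinase terms were not called: protein serine/threonine kinase activity, 24 genes, had an adjusted p of 0.0529 and protein kinase activity, 23 genes, one of 0.0733 in the authors' deposited table. Pyruvate dehydrogenase kinases are related in fold to histidine kinases rather than to the usual protein kinases, although they act on serine.

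PDK2 of module 6 stood in the same 9 rows as pdk4, and of the 290 other genes of that module in any row it was the only one with an identical set. Next came MAP4K5, a kinase of stress signalling, with 8 of the 9. The row that tells the pair from those other kinases was mitochondrial matrix, with HSPD1, the mitochondrial chaperonin, 2 identifiers named CLPX, a matrix protease component, foxo3b, PDK4 and PDK2 (6 of 83 background genes, 4.65-fold, adjusted p = 0.409 in the authors' deposited table). That term was also listed for module 7, where it held pdhx, so both kinase genes and a subunit carry the same term of cell location while lying in different modules. PDK2 of module 1 stood in 7 rows, of which 0 were called, where 4.46% of the 202 terms in the module 1 chart were. Kinase activity there held 58 genes (1.67-fold, adjusted p = 0.0888 in the authors' deposited table), and mitochondrial matrix was not listed.

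pdp2 was listed by dephosphorylation. In the chart of module 1, protein dephosphorylation held 16 genes (2.23-fold, unadjusted p = 0.0054, adjusted p = 0.419 in the authors' deposited table). Phosphatase activity held 17 (2.08-fold, unadjusted p = 0.0078, adjusted p = 0.553 in the authors' deposited table). Phosphoprotein phosphatase activity, 12 genes, and hydrolase activity, 80 genes, had an adjusted p of 1 in the authors' deposited table. By shared rows over all rows of either gene, the genes most like pdp2 were PPTC7, a mitochondrial phosphatase (0.75), PPM1K, the phosphatase that activates branched-chain ketoacid dehydrogenase (0.6), and DUSP5, a dual-specificity phosphatase (0.571). PPTC7 and PPM1K each shared 3 rows with pdp2. By the number of shared rows alone the order is another: 7 genes shared all 4, among them DUSP5, the receptor-type ptprdb and PPM1E, which stood in other rows as well. The terms mitochondrion and mitochondrial matrix were not in the chart of module 1, so pdp2 could not be listed under them.

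**Figure D3:**
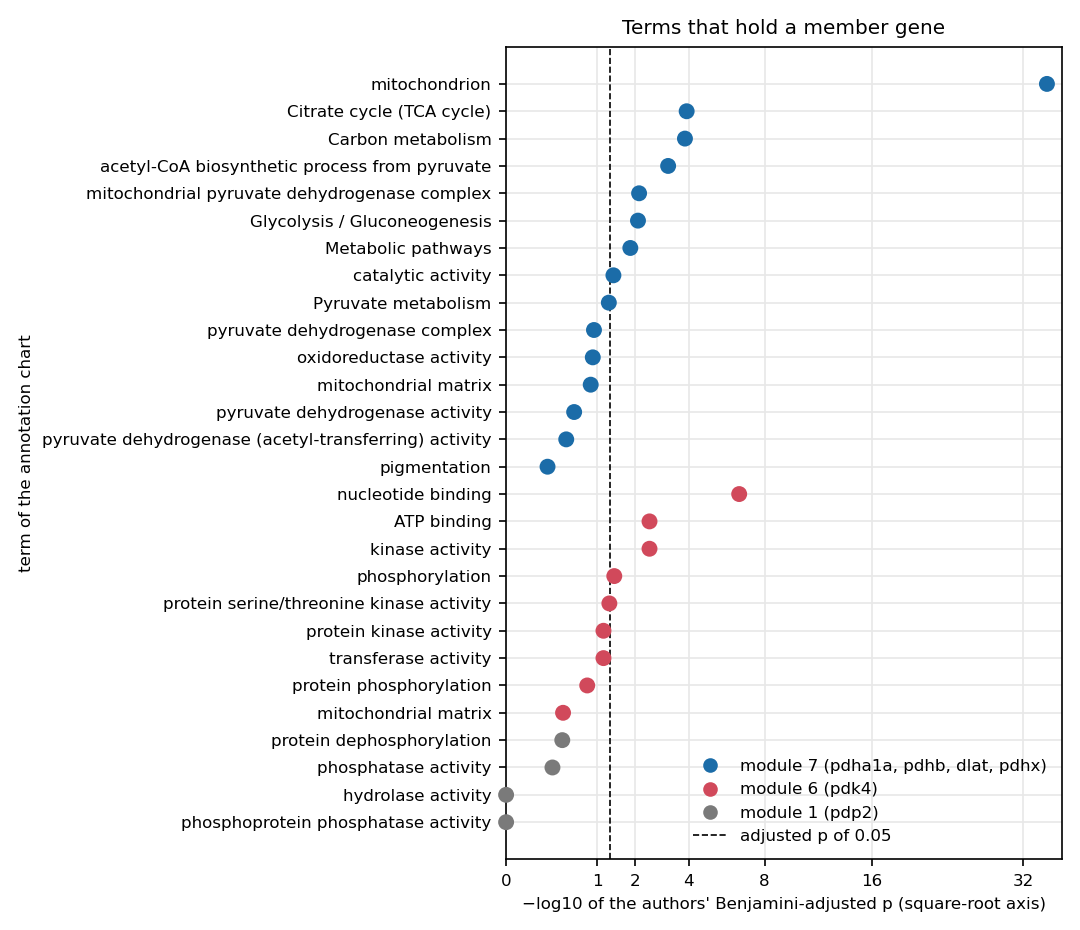
Each dot is a chart row that lists at least 1 of the 6 genes, placed by −log10 of the authors' Benjamini-adjusted p on a square-root axis; the dashed line marks an adjusted p of 0.05 and colour the module. Of the rows with subunits 8 lie past the line, of those with pdk4 4 and of those with pdp2 0. Over the whole charts of modules 7, 6 and 1, 53.5%, 7.83% and 4.46% of terms were called.

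Of the 15 terms with a subunit, 12 were in no other chart, close to the 81.3% of all terms of the module 7 chart that were listed there alone. The 3 others were mitochondrial matrix, carbon metabolism and glycolysis, and each was also in the chart of module 6. Of the 9 terms with pdk4, 8 were also in another chart, where 42.6% of all terms of the module 6 chart were. All 4 terms with pdp2 were also in another chart, where 38.6% of all terms of the module 1 chart were. These are few and overlapping terms, and the difference was not tested. Kinase activity covered 9.43% of the annotated genes of module 6, 6.23% of those of module 1 and 6.10% of those of module 2, against 3.74% of the background in the authors' deposited table. It was not listed for module 7. Phosphatase activity covered 3.03% of the annotated genes of module 6 (3.46-fold, adjusted p = 0.105 in the authors' deposited table) and 1.83% of those of module 1, where pdp2 lay. A chart lists terms with a p of at most 0.1, so a term that is missing from it may still have genes in that module.

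The rest of the route from pyruvate to the citric acid cycle was followed on lists drawn up for the purpose. Of pyruvate and lactate handling genes, 4 of 21 identifiers lay in a module, beside 12.5% of all named genes. MPC1, a subunit of the mitochondrial pyruvate carrier, and LDHB, the lactate dehydrogenase subunit typical of heart, lay in module 7 with the subunits. The monocarboxylate transporter genes SLC16A1 and SLC16A3 lay in modules 2 and 1, with 1 of 2 identifiers each. LDHA, both identifiers named PKM, both named MPC2 and both named PC, pyruvate carboxylase, lay in none. Of 8 identifiers for the synthesis and transport of the lipoyl and thiamine cofactors, 0 lay in any module. At a share of 12.5% this absence is not read as a result.

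Of the sister complexes that share the design of pyruvate dehydrogenase, 3 of 10 identifiers lay in a module, beside 12.5% of all named genes. Each lay in a different module. DLST, the core of oxoglutarate dehydrogenase, was in module 7, its decarboxylase ogdha in module 6, and PPM1K in module 1. DBT, BCKDHA, BCKDHB and BCKDK, the core, decarboxylase subunits and kinase of the branched-chain complex, lay in no module. Of the citric acid cycle, 7 of 20 identifiers lay in modules, beside the same 12.5%. In module 7 lay 5 of them (71.4%, beside 8.52% of all module genes): IDH2, MDH1, MDH2, SDHC and FH, the last with 1 of its 2 identifiers. MDH1 names the cytosolic malate dehydrogenase. IDH3G, a subunit of the isocitrate dehydrogenase that uses NAD, lay in module 6 and SUCLG2, of succinyl-CoA ligase, in module 8. Citrate synthase (CS), SDHA, SDHB and SUCLA2 were among the 13 identifiers in no module.

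Of the genes of fatty acid oxidation, the other source of acetyl-CoA, 7 of 26 identifiers lay in modules, beside 12.5% of all named genes. Module 7 with the subunits held 2 (28.6%, beside 8.52% of all module genes). Module 6 with pdk4 held 2 (28.6%, beside 9.84%), and modules 2, 4 and 5 held 1 each. Module 1, with 34.7% of all module genes, held 0. These counts are small and were not tested. FABP3, a fatty acid carrier of heart muscle, and ECHS1, an enoyl-CoA hydratase, were those of module 7. ACADVL, which starts the oxidation of very long chains, and cpt1ab, a gate of mitochondrial fatty acid entry, were those of module 6. The other listed genes with a CPT1 symbol lay elsewhere, CPT1A in module 4 and CPT1B in module 5.

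Of 27 identifiers of transcription regulators known in mammals to act on PDK4 or on oxidative metabolism, 10 lay in modules, beside 12.5% of all named genes. Module 7, with 8.52% of all module genes, held 0 of the 10, which is not read as a result at that share. Module 6, which holds pdk4, held 4 (40.0%, beside 9.84% of all module genes): PPARGC1A, the coactivator of mitochondrial biogenesis, the orphan receptor ESRRG, the forkhead factor foxo3b and NRF1, a factor of respiratory chain genes. FOXO1, with 1 of its 2 identifiers, and esrrgb lay in module 1 with pdp2, and HIF1A lay in module 4. Of the retinoid receptors, RXRA had 1 identifier in module 2 and 1 in module 3, and RXRB lay in module 3. No identifier named after a PPAR receptor lay in a module. The FoxO signaling row of the module 6 chart held 9 genes, among them foxo3b, INSR, IRS2 and akt2 (2.93-fold, adjusted p = 0.151 in the authors' deposited table), and did not list pdk4. The same term in the chart of module 2 also held 9 genes (2-fold, adjusted p = 0.517 in the authors' deposited table). These are small counts on lists made with earlier results of these data known, and no expression value ties any of these genes to pdk4.

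**Figure D4:**
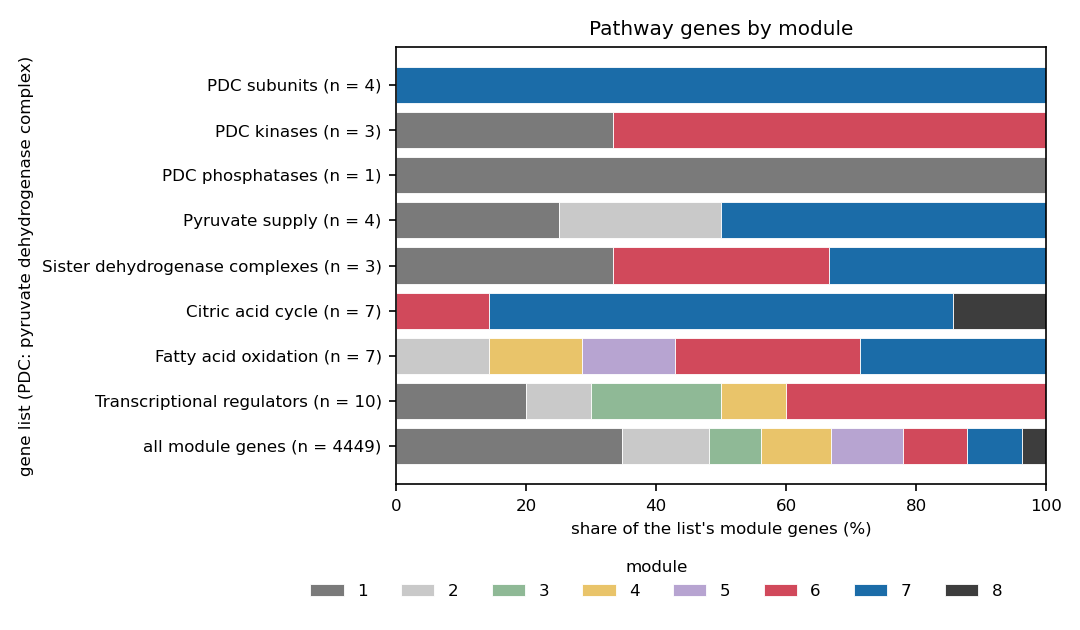
Each bar divides the genes of a list that lie in a module by the module they lie in (percent, with n the genes in modules), and the lowest bar shows all 4449 module genes. Module 7 takes the whole bar of the 4 subunits and 71.4% of the citric acid cycle. It takes none of the bars of kinases (3 genes), the phosphatase (1) and transcription regulators (10). Module 7 holds 8.52% of all module genes, so these absences are not read as a result.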

How the data were processed

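Single mCitrine-sorted cells in 7 plates were sequenced by SORT-seq with CEL-Seq2 chemistry, per the labels' protocols. The submitters' processing notes name Seurat without version or role; the aligner, build, annotation and the making of the modules were not given in the sources used here. Deposited by the authors were 8 lists of gene identifiers and 8 annotation charts. Per the file headers, the charts give gene counts per term, a percent of module genes, a fold as a ratio of shares, and p-values with Benjamini adjustment. The damaged last column was not used. Recomputed folds differed from the deposited ones by at most 9.5e-15 (relative). In 35 of the 834 rows the number of different genes listed was not the count given.

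Identifiers were named from a table of 29201 zebrafish genes, which named 3651 of the 4449 module genes (82.1%); symbols were compared exactly, ignoring case. All 6 members, and every listed gene of the complex, pyruvate supply, cofactors, sister complexes and the cycle that lay in a module, are named, with genes in modules 1, 6 and 7 of the other lists. Likeness between genes is the share of chart rows they have in common; this measure and the genes it names were chosen after the charts were seen. The members and lists were chosen with earlier results of these data known. No test was made: the lists carry no plate values, and depth and precision per plate are unknown. The look-up was checked on made-up lists (Python 3.11.15, matplotlib 3.10.9). Plates fell into groups by their titles.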

Additional observations from a re-analysis of the deposited data

How the results depend on the processing

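No paired analysis was possible because the module lists and charts carry no values per plate, and for that reason no plate could be left out. The joining of RefSeq symbols by Ensembl identifier was not run, since 0 rows of the RefSeq table used here hold such an identifier. The 4 subunits in module 7 and pdk4 in module 6 were found again in the first ascending run of identifiers. These runs hold 375 of the 379 genes of module 7 and 329 of the 438 of module 6. Finding the genes there again is therefore little of a check. Matching without a final a or b, or with RefSeq synonyms (chosen after seeing the data), keeps every exact match. These matchings can only add genes, so they could not lose a member, and they added none to these counts. In the first runs alone, pdp2 was not found, which left 0 regulators in module 1, because it stands at place 1459 of that list and the run ends at 1085. Of 27 counts of list genes in modules 7, 6 and 1, 2 changed by over 1.5 times in the first runs, both in module 1, and none with the other matchings. Of the chart rows with members, 12 were called at an adjusted p under 0.05 and 9 under 0.01. No share over whole charts was counted at 0.01. At an unadjusted p under 0.05 there were 25, of which 14 were rows of subunits, 9 of pdk4 and 2 of pdp2. Whole charts had such a p for 119 of 155 terms (module 7), 76 of 115 (module 6) and 115 of 202 (module 1). Without KEGG pathways, 8 rows in all and 4 of the 8 rows of subunits stayed called. With terms of at least 5 genes, 10 rows in all and 6 of the 8 rows of subunits stayed called. The rows lost were acetyl-CoA biosynthetic process from pyruvate, with 4 genes, and mitochondrial pyruvate dehydrogenase complex, with 3. These were the only called rows that name the reaction or the complex.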

Other observations

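Glycolytic genes stood in the modules of both pdk4 and the subunits. The glycolytic process row of module 6 held PFKM, PFKP, HK1, GPI, ALDOC and INSR (9.45-fold, adjusted p = 0.105 in the authors' deposited table), of which HK1, GPI and the phosphofructokinases act before fructose is split. ALDOC, an aldolase, acts at the split itself, as the ALDOA genes do, so the step of the pathway does not part the modules cleanly. The same term in the chart of module 7 held 2 identifiers named ALDOA with TPI1, GAPDH, PGAM2 and ENO3, which act from that split onwards (11-fold, adjusted p = 0.00482 in the authors' deposited table). INSR, the insulin receptor, is no glycolytic enzyme. Whether the arrangement differs from a chance one was not tested.

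In the chart of module 8, mitochondrial citrate transport held slc25a1a and SLC25A1, 2 of 3 background genes (131-fold, unadjusted p = 0.0151, adjusted p = 1 in the authors' deposited table). These carriers move citrate, which is made from the acetyl-CoA of pyruvate dehydrogenase, out of the mitochondrion. The pigmentation row of module 7 listed pdhb with eif3ea and an ALDOA identifier (adjusted p = 0.623 in the authors' deposited table).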
